A study of Mus musculus with 6 samples.

Results

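The genes described here are 44 interferon-stimulated genes, out of 22548 gene symbols measured in mouse eosinophils cultured from bone marrow. They were taken by name, as genes known to be induced by interferons. The list holds 34 antiviral genes of the type I interferon response and 10 GTPases, namely 4 guanylate-binding proteins and 6 immunity-related GTPases (IRG proteins). The 6 libraries stand for 6 groups, with untreated, IL-4-treated and IL-33-treated cells harvested at 1 h or 4 h. All groups were wild-type BALB/c cells, from animals aged 4 to 8 weeks, without any transgene or deletion. Low-density marrow cells had grown for 14 days, with SCF and FLT3 ligand at 100 ng/ml in the first 4 days and with IL-5 at 10 ng/ml afterwards, so every group had also received IL-5. IL-4 or IL-33 was given at 10 ng/ml on day 14. The labels do not say how many animals or cultures gave each library. As each group has a single library, differences could not be set against replicate spread, and p-values are not given.

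Interferons are secreted antiviral signals. Type I interferons bind the receptor IFNAR, whose kinases Jak1 and Tyk2 activate Stat2; with Irf9 it takes part in a factor that binds the interferon-stimulated response element (ISRE). IFN-gamma signals through Jak1 and Jak2 to the gamma-activated site (GAS), and is a strong inducer of the GTPases. IL-33 signals through its receptor ST2 to NF-kB and MAP kinases, and IL-4 through Stat6; neither is an interferon. Eosinophils carry receptors for interferons and for both cytokines.

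The stretches of promoter printed here show matches to the ISRE or GAS, first for 4 antiviral genes and then for 4 GTPases. Among them are some of the genes with the clearest differences below. Each printed stretch holds an ISRE match, which is not the case for every member, as counted below. They end at the base before the annotated start of transcription, read 5′ to 3′ along the gene, and come from RefSeq on GRCm38.p6. Capitals mark matches, on either strand, to the core of the ISRE (GAAA, any 2 bases, GAAA) or of the GAS (TTC, any 3 bases, GAA). An ISRE core on the other strand starts and ends with TTTC. Matches that overlap each other run together.

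Isg15 lies on the minus strand at chr4:156200819-156200918, and 3 overlapping ISRE matches span 78 to 57 bases before its start.
Isg15: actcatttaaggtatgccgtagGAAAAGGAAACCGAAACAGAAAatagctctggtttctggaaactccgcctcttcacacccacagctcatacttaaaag
Rsad2, on the minus strand at chr12:26456453-26456592, holds 1 ISRE match.
Rsad2: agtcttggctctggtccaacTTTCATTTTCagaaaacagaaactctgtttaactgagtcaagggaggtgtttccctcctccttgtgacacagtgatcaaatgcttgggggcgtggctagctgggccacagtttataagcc
Ifit1, on the plus strand at chr19:34640769-34640888, holds 2 separate ISRE matches.
Ifit1: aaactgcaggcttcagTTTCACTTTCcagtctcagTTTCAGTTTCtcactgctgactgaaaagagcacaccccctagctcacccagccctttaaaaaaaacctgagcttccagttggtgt
Ifit3, on the plus strand at chr19:34583359-34583528, also holds 2.
Ifit3: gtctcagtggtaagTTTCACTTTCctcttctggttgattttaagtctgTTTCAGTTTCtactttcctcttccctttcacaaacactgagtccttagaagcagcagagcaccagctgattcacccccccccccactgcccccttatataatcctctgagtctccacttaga
Gbp2, on the plus strand at chr3:142620563-142620662, holds 1 ISRE match 59 to 50 bases before its start.
Gbp2: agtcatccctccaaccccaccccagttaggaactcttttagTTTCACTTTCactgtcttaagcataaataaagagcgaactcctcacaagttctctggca
Gbp3, its neighbour on the plus strand at chr3:142559944-142560043, holds 2 that overlap.
Gbp3: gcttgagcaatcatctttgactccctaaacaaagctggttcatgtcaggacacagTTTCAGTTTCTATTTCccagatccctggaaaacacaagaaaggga
Irgm2, on the plus strand at chr11:58214877-58214976, holds a GAS match beside an ISRE match.
Irgm2: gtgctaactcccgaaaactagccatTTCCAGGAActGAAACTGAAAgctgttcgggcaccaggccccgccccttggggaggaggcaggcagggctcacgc
Igtp, on the plus strand at chr11:58199456-58199555, holds the same arrangement, and the longest run of bases shared by these stretches of Irgm2 and Igtp is 29 bases.
Igtp: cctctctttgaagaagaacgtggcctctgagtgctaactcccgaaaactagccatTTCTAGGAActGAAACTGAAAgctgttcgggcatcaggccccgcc

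RefSeq gave a promoter for 33 of the 44 members. Within 250 bases before the start, 16 of these 33 (48.5%) held an ISRE match, against 3.46% of all 27025 genes with promoters of that length. Such a match was found for 7 of 8 GTPases and 9 of 25 antiviral genes. A GAS match was found in 9 of the 33 (27.3%), against 8.13% of all genes. A form of the NF-kB site (GGGA, any 2 bases, TTCC) was found in 2 of the 33 (6.06%), against 1.36% of all, and in 0 of 8 GTPases. These are matches of letters and describe neither binding nor use of a site, and short windows miss elements that lie elsewhere. As the members were taken as genes known to be induced by interferons, their larger share of ISRE matches is a description of the list.

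The values were FPKM, that is, reads scaled by transcript length and library size, summed over the transcripts of a gene. Each treated library was deposited in a table with the untreated library of its time, and the 2 IL-33 tables were scaled apart from the IL-4 tables. The tables of 1 h and of 4 h were also scaled separately, and no factor was computed between them. Levels below are given on the scale of the IL-4 tables; changes are log2((treated FPKM + 1) / (control FPKM + 1)) within 1 table, a scale that understates changes of low genes. "Higher" and "lower" mean a change of at least 1 on that log2 scale, among genes with FPKM of at least 1 in 1 of the 2 libraries. For genes with 1 transcript, reads were estimated from the FPKM, and a 95% interval of the fold (Clopper-Pearson) was computed; it covers counting error only and says nothing of the spread between cultures. Estimated depth was 15500000 to 31000000 reads, lowest in untreated cells at 4 h and highest with IL-33 at 4 h. The eosinophil markers Prg2, Epx and Ccr3 were abundant in each library, and the summed level of the eosinophil list was 66959 to 67908 FPKM at 1 h and 60956 to 71619 at 4 h. In bulk RNA, fewer cells of a type and less RNA per cell cannot be told apart.

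Each of the 44 members had at least 0.857 FPKM in untreated cells at 1 h. The 3 most abundant were Samhd1, a hydrolase of deoxynucleotides, Ifitm3, which blocks fusion of viruses with the cell, and Bst2, the tether of budding virions. Samhd1 stood at 367, 349 and 363 FPKM in untreated, IL-4 and IL-33 cells at 1 h, and at 243, 243 and 270 at 4 h. Ifitm3 stood at 236, 241 and 229 FPKM at 1 h and at 199, 195 and 181 at 4 h. Bst2 stood at 225, 214 and 216 FPKM at 1 h and at 146, 147 and 132 at 4 h. In all 3 genes, each library of 4 h lay below each library of 1 h. The least abundant members were the GTPases Gbp6, at 0.605 to 1.24 FPKM, and Iigp1, at 0.517 to 1.70 FPKM, so small numbers of reads lie behind them.

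Few of these genes were higher or lower with IL-33. At 1 h, 2 of 43 members were higher (Gbp2 and Trex1) and 1 was lower (Usp18), where 2.36% of all genes were higher and 0.669% lower. At 4 h, 3 of 42 were higher (Gbp2, Gbp3 and Tgtp1) and 0 were lower, against 4.15% and 1.38% of all genes. The count at 4 h falls to 2 when Tgtp1 is summed with Tgtp2, including the Tgtp2 transcript annotated at the Tgtp1 locus. The median change of the members was -0.04 at 1 h and -0.01 at 4 h, beside -0.01 and -0.03 over all genes compared, so the family as a whole lay where other genes lay.

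**Figure D1:**
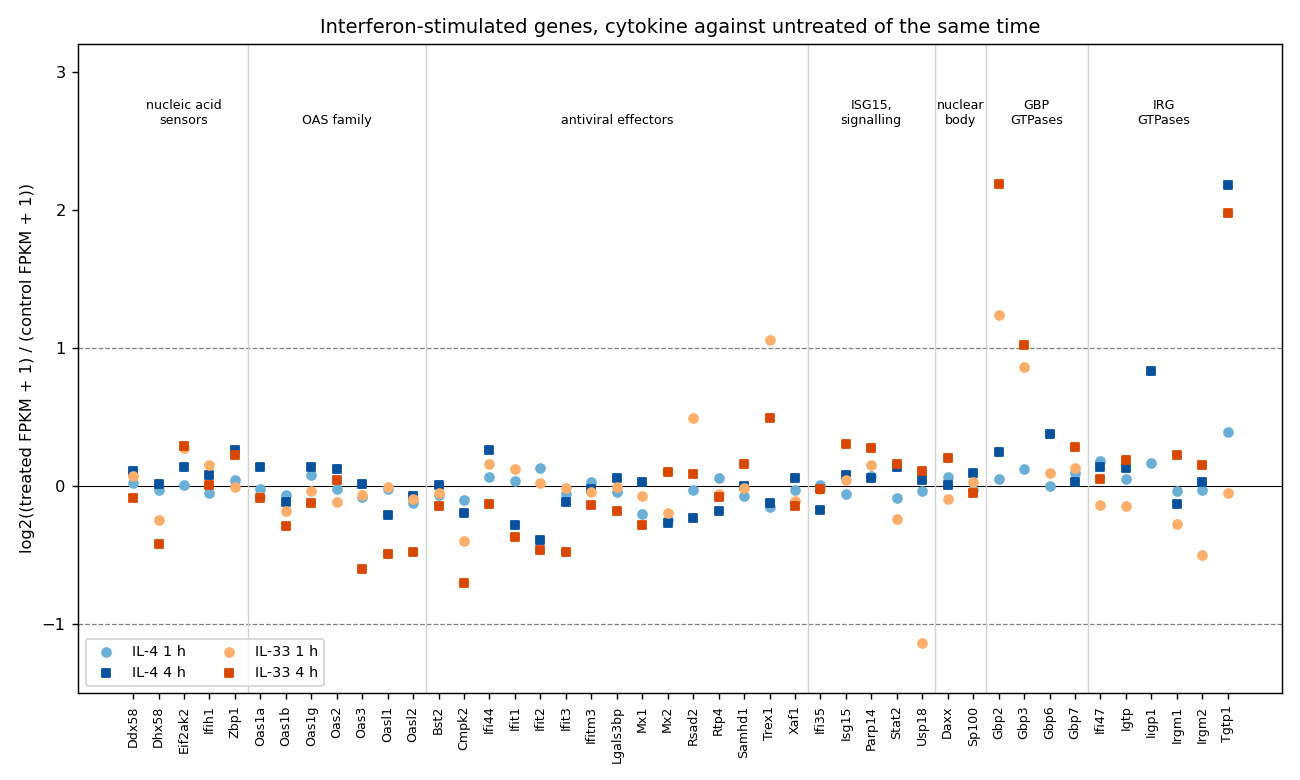
Change of each member with IL-4 (blue) or IL-33 (orange), at 1 h (circles) and 4 h (squares), as log2((treated FPKM + 1) / (control FPKM + 1)) within 1 table, by role; dashed lines mark the size of 1 that counts as higher or lower. Gbp2 with IL-33 reached 1.24 and 2.19, Usp18 with IL-33 at 1 h -1.14, and most other points lie near 0; members under FPKM 1 in both libraries have no point.

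Gbp2 is a guanylate-binding GTPase that coats the vacuoles of intracellular pathogens (NM_010260, mm9 chromosome 3, 142283626 to 142300972). Its level at 1 h was 4.68 FPKM in untreated cells, 4.86 with IL-4 and 12.5 with IL-33. At 4 h it was 3.16, 3.92 and 18.2 FPKM. Both IL-33 libraries thus stood above the other 4, which lay between 3.16 and 4.86. The fold with IL-33 was 2.67 at 1 h (95% counting interval 2.29 to 3.11) and 5.75 at 4 h (4.74 to 7.02), the latter from about 114 and 1237 estimated reads.

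Gbp3, the neighbouring gene of the same family (NM_018734, chromosome 3, 142223015 to 142236176), showed the same order at a lower level. It stood at 0.857, 1.02 and 2.42 FPKM in untreated, IL-4 and IL-33 cells at 1 h and at 0.896, 0.721 and 2.90 at 4 h. The fold with IL-33 was 2.83 (1.99 to 4.03) at 1 h and 3.24 (2.24 to 4.78) at 4 h. On the log2 scale with 1 added, these were 0.86, the member nearest below the size of 1, and 1.02, the nearest above it. Gbp1, a further gene of this cluster that is no member, stood at 3.35, 3.31 and 9.09 FPKM at 1 h and 3.38, 2.68 and 8.22 at 4 h. Reads of guanylate-binding genes can be shared among near copies, and Gbp6 and Gbp10 in particular cannot be fully separated.

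The other guanylate-binding members differed less. Gbp7 changed by 0.13 at 1 h and by 0.28 at 4 h with IL-33, from 4.30 and 5.22 FPKM in untreated cells. On the scale of the IL-33 table of 4 h, its transcript NM_001083312 went from 4.95 to 4.31 FPKM. NM_145545 went from 0.00165 to 1.91, so the positive change of Gbp7 came from that transcript. Gbp6 had a fold of 1.74 with IL-33 at 4 h (1.05 to 2.85), from about 23 and 74 reads. It stayed under FPKM 1 in that table. With IL-4 at 4 h its fold was 1.80 (1.05 to 3.00), from the same 23 reads and about 50. Its levels in untreated, IL-4 and IL-33 cells were 1.10, 1.10 and 1.24 FPKM at 1 h. At 4 h they were 0.605, 1.09 and 1.05, so the untreated library of 4 h was the single low one.

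The IRG proteins act on the membranes of pathogen vacuoles; Irgm1, Irgm2 and Igtp are regulators, whereas Tgtp1 and Iigp1 belong to the effectors. With IL-33 at 1 h all 5 IRG genes compared had negative changes, from -0.50 to -0.05, and at 4 h all 5 compared had positive ones. The 5 include Tgtp1, which cannot be read on its own, as described below. For Ifi47 the counting interval of the fold held 1 at both times (0.746 to 1.08 and 0.850 to 1.27). For Igtp it held 1 at 1 h (0.781 to 1.02). Over all genes compared, 5558 of 10616 were negative at 1 h and 5022 of 10803 were positive at 4 h. Irgm2 stood at 8.00, 7.82 and 5.33 FPKM at 1 h and at 9.87, 10.1 and 11.1 at 4 h. Its fold with IL-33 was 0.667 at 1 h (0.585 to 0.757) and 1.12 at 4 h (1.01 to 1.25). Irgm1 followed with 0.816 (0.741 to 0.898) and 1.18 (1.07 to 1.30). None of these reached the size of 1 on the log2 scale, except Tgtp1 at 4 h.

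Tgtp1 cannot be read on its own. It stood at 2.45, 3.51 and 2.33 FPKM at 1 h, at 0.000209 in untreated cells at 4 h, and at 3.54 and 3.10 with IL-4 and IL-33 at 4 h. The deposited tables place a Tgtp2 transcript at the same locus as Tgtp1 (mm9 chromosome 11, 48798830 to 48805756) and a copy of it at 48851161 to 48948889. The Tgtp2 transcript at the Tgtp1 locus stood at 0.00319 FPKM in untreated cells at 1 h, at 2.19 in untreated cells at 4 h, where Tgtp1 was near 0, and at 0.00347 with IL-4 at 4 h. The copy stood at 2.89, 2.45 and 3.83 FPKM in the same 3 libraries. Summed over the Tgtp1 locus alone, the change at 4 h was 0.51 with IL-4 and 0.36 with IL-33. Summed over Tgtp1 and both Tgtp2 transcripts it was 0.57 and 0.40. None of these sums was past the size of 1, whereas Tgtp1 alone had 2.18 and 1.98.

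Trex1 encodes an exonuclease that degrades DNA in the cytosol (chromosome 9, 108960445 to 108962237). It stood at 37.5 FPKM in untreated cells, 33.7 with IL-4 and 79.1 with IL-33 at 1 h. At 4 h the levels were 35.5, 32.4 and 50.4 FPKM. The fold with IL-33 was 2.11 at 1 h and 1.42 at 4 h; as the gene has 2 transcripts, no counting interval was computed. Both IL-33 libraries were above the other 4 libraries, and the higher of them was that of 1 h.

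Usp18 removes ISG15 from proteins and restrains signalling from IFNAR (NM_011909, chromosome 6, 121195923 to 121220935). It stood at 47.5, 46.3 and 21.0 FPKM in untreated, IL-4 and IL-33 cells at 1 h, and at 49.6, 51.0 and 53.4 at 4 h. The IL-33 library of 1 h was therefore the single low one of the 6. Its fold was 0.443 at 1 h (0.406 to 0.482) and 1.08 at 4 h (1.00 to 1.15). Isg15 itself, the modifier that Usp18 removes, did not share this pattern and stood at 50.9, 48.8 and 52.4 FPKM at 1 h.

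**Figure D2:**
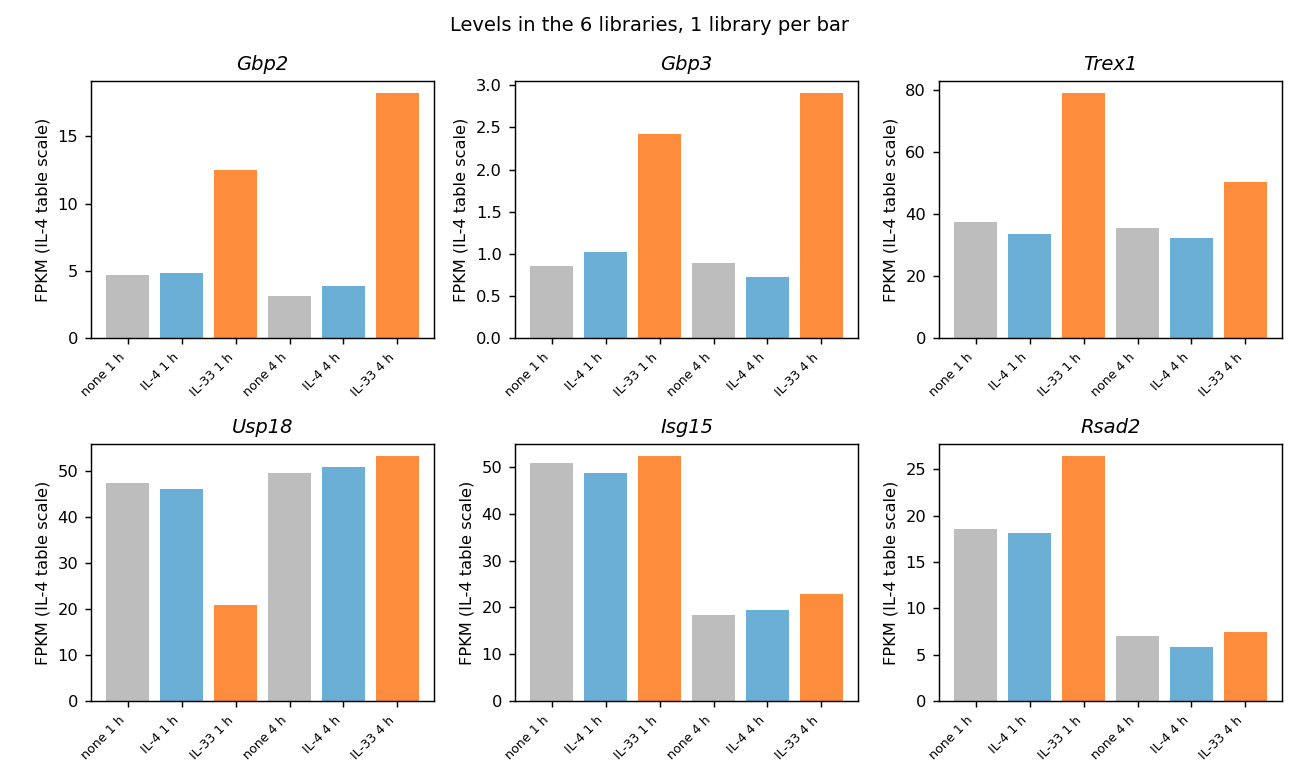
Level in FPKM (IL-4 table scale) of 6 members in the 6 libraries, each bar 1 library, grey for untreated, blue for IL-4 and orange for IL-33 cells. Gbp2, Gbp3 and Trex1 are highest in the 2 IL-33 libraries, Usp18 is lowest at 21.0 with IL-33 at 1 h, and Isg15 and Rsad2 are lower in each library of 4 h than in each of 1 h.

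Among the antiviral genes, smaller differences with IL-33 pointed both ways. At 1 h Rsad2 (viperin, which makes a chain-terminating nucleotide) stood at 18.5 FPKM in untreated and 26.4 in IL-33 cells, a fold of 1.43 (1.34 to 1.53). Cmpk2, the nucleotide kinase encoded next to it, went the other way, at 8.54 and 6.23 FPKM, a fold of 0.729 (0.642 to 0.828). At 4 h Cmpk2 stood at 5.50, 4.67 and 2.97 FPKM in untreated, IL-4 and IL-33 cells, and the fold of IL-33 against untreated cells was 0.540 (0.453 to 0.644), while Rsad2 had a fold of 1.07 (0.948 to 1.21). At both times the intervals of these neighbouring genes did not overlap each other.

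The antiviral genes with lower levels in IL-33 cells at 4 h included several OAS and IFIT genes. OAS enzymes make oligoadenylates that activate RNase L, and the OAS-like genes are their relatives. Oas3 stood at 11.4 FPKM in untreated, 11.5 in IL-4 and 7.13 in IL-33 cells, a fold of 0.625 (0.568 to 0.687). Oasl1 had a fold of 0.694 (0.625 to 0.772) and Oasl2 of 0.670 (0.573 to 0.786). Oas2 did not share this, at 11.0 and 11.4 FPKM with a fold of 1.03 (0.938 to 1.14), and for Oas1a and Oas1g, which share reads, the intervals held 1. Ifit1, Ifit2 and Ifit3, which bind viral RNA or block its translation, had folds of 0.709, 0.605 and 0.656; Ifit3 cannot be fully separated from its copy Ifit3b. Dhx58, a regulator of RNA sensing, had a fold of 0.729 (0.646 to 0.823).

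A few antiviral genes leaned up at 4 h with IL-33. Eif2ak2, the RNA-activated kinase PKR, had a fold of 1.26 (1.12 to 1.43), Parp14, an ADP-ribosyltransferase, 1.24 (1.15 to 1.34), and Isg15 1.25 (1.03 to 1.51). Counted over the single-transcript members with FPKM of at least 1, the interval lay above 1 for 10 of 32 and below 1 for 11 of 32 at 4 h. Over all 8297 such genes it lay above 1 for 30.4% and below 1 for 34.9%, so the members' shares were near those of other genes. The members below 1 were antiviral genes in 11 of 11 cases, where 26 of the 32 members counted were antiviral. Of the 6 GTPases counted, 5 were above 1. Among these, Gbp3 reached FPKM 1 only through the IL-33 library, at 2.75 against 0.849 in that table. The lower limits of Irgm2 and Igtp were just past 1, at 1.007 and 1.0006. At 1 h the interval was above 1 for 6 of 33 members and below for 7, beside 22.5% and 25.8% of all genes.

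Set beside each other, the GTPases and the antiviral genes had median changes of 0.25 and -0.09 with IL-33 at 4 h. All 8 GTPases compared were positive, as were 13 of the 34 antiviral genes, beside 5022 of all 10803 genes compared. The 8 include Tgtp1, which cannot be read on its own, and Gbp3, which reached FPKM 1 only with IL-33. They also include Gbp7, whose more abundant transcript was lower with IL-33. At 1 h with IL-33 the medians were -0.05 and -0.03. Positive were 4 of 9 GTPases and 11 of 34 antiviral genes, beside 5058 of all 10616 genes. No test of the difference between the lists was made.

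With IL-4 most members stayed close to their untreated levels. At 1 h, 0 of 44 members were higher or lower, where 0.47% of all genes were higher and 0.358% lower. At 4 h, 1 of 43 was higher, Tgtp1, and 0 were lower, against 0.646% and 0.351% of all genes; with Tgtp1 and both Tgtp2 transcripts summed there was none. The median change was -0.03 at 1 h and 0.03 at 4 h, beside -0.02 and 0.02 over all genes. The counting interval held 1 for 32 of 33 single-transcript members at 1 h. At 1 h it lay above 1 for 0 and below 1 for 1, beside 5.53% and 12.8% of all genes, and at 4 h above 1 for 4 of 32 and below 1 for 6, beside 14.9% and 8.14%. Iigp1 had the next largest change with IL-4 at 4 h, 0.83, from 0.517 to 1.70 FPKM. Positive with IL-4 at 4 h were 8 of 9 GTPases and 20 of 34 antiviral genes, beside 6130 of all 10833 genes. At 1 h they were 8 of 10 and 12 of 34, beside 4269 of 10628. The medians were 0.14 and 0.01 at 4 h and 0.07 and -0.03 at 1 h. The GTPases at 4 h include Tgtp1, and Gbp6 and Iigp1, which reached FPKM 1 only with IL-4. Both cytokines were set against the same untreated library of 4 h.

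Directly against IL-4, IL-33 gave 2 higher members at 1 h (Trex1 by 1.21 and Gbp2 by 1.19) and 1 lower (Usp18, -1.10), as differences of the within-table log2 changes over 44 members. Over all genes, 2.34% were higher and 0.661% lower. At 4 h Gbp2 (1.95) and Gbp3 (1.16) were higher and 0 of 44 were lower, against 3.66% and 1.07%. As both cytokines share the untreated library of their time, these values are not independent of those above.

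More members differed between the times than with either cytokine. In untreated cells at 4 h against untreated cells at 1 h, 8 of 42 members were lower and 0 higher, where 1.56% of all genes were lower and 0.879% higher. The 8 were Isg15 (-1.42), Zbp1 (-1.42), Rsad2 (-1.29), Oas2 (-1.18), Oas3 (-1.15), Ifi44 (-1.09), Oas1a (-1.002) and Tgtp1 (-1.79). Without Tgtp1, whose value depends on its copy, 7 remained, all antiviral. The median change of the members was -0.52, and that of all genes was 0.10. Oas1a was the member nearest to the size of 1, at -1.002, and its near copy Oas1g lay just outside at -0.96; with the control columns of the IL-33 tables Oas1a was at -0.996. The labels do not say how the cells of the 2 times were cultured and harvested relative to each other. Time therefore cannot be told apart from other differences between the libraries.

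Isg15 (NM_015783, chromosome 4, 155573532 to 155574927) stood at 50.9, 48.8 and 52.4 FPKM at 1 h and at 18.4, 19.5 and 22.9 at 4 h. The fold in untreated cells was 0.361 (0.301 to 0.431). Rsad2 (NM_021384, chromosome 12, 27127607 to 27141317) stood at 18.5, 18.1 and 26.4 FPKM at 1 h and at 6.99, 5.78 and 7.49 at 4 h. Its fold was 0.378 (0.336 to 0.423). In both genes the highest library of 4 h was below the lowest of 1 h by more than 2-fold.

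Zbp1, a sensor of Z-form nucleic acid, stood at 47.5, 49.0 and 47.2 FPKM at 1 h and at 17.1, 20.7 and 20.2 at 4 h. Oas2 stood at 26.2, 25.7 and 24.1 at 1 h and at 11.0, 12.1 and 11.4 at 4 h. Oas3 stood at 26.5, 25.0 and 25.2 FPKM at 1 h and at 11.4, 11.5 and 7.13 at 4 h. The 3 libraries of a time lay close together in Zbp1 and Oas2, while in Oas3 the IL-33 library of 4 h was the lowest of all 6. Oas1a stood at 36.5, 35.9 and 34.4 FPKM at 1 h and at 17.7, 19.6 and 16.6 at 4 h, and Ifi44 at 8.27, 8.68 and 9.37 at 1 h and at 3.35, 4.20 and 2.96 at 4 h. The libraries of the 2 times did not overlap in either gene.

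The pairs of treated libraries, which share no library with the untreated pair, gave the same comparison again. With IL-4, 6 of 44 members were lower at 4 h than at 1 h and 0 higher, against 1.43% and 1.3% of all genes. With IL-33, 12 of 43 were lower and 2 higher, against 2.72% and 4% of all genes; the 2 were Usp18 (1.31) and Stat2 (1.01). The median change was -0.41 with IL-4 and -0.52 with IL-33, and that of all genes was 0.15 and 0.09. The depth at 4 h was below that at 1 h in the untreated pair, at 15500000 against 21000000 reads, and above it in the IL-33 pair, at 31000000 against 25800000, while the median of the members was negative in both; the part of depth was not tested.

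**Figure D3:**
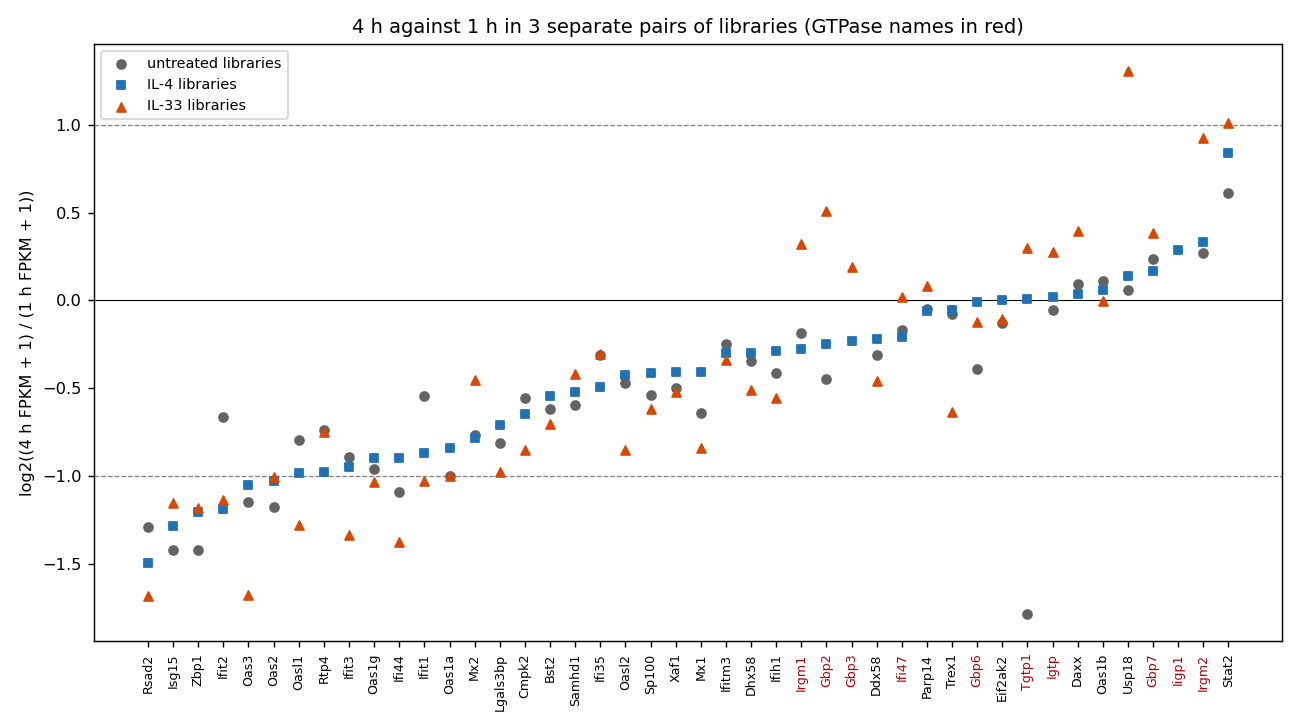
Change of each member from 1 h to 4 h, as log2((4 h FPKM + 1) / (1 h FPKM + 1)), in untreated (grey circles), IL-4 (blue squares) and IL-33 libraries (orange triangles), ordered by the value in the IL-4 pair, with GTPase names in red; dashed lines mark a size of 1. Rsad2, Isg15 and Zbp1 lie below -1 in each pair, and the GTPase below -1 is Tgtp1, in the untreated pair.

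Counted by levels, 28 of the 44 members had all 3 libraries of 4 h below all 3 of 1 h, and 5 had them above (Usp18, Daxx, Stat2, Irgm2 and Gbp7). Over all 11183 genes with FPKM of at least 1 in a library, 11.1% lay below and 30.6% above. The antiviral genes gave 27 of 34 below, and the GTPases 1 of 10, which was Gbp6. By role, the genes that lay below were 4 of 5 nucleic acid sensors, 6 of 7 OAS genes, 14 of 15 further antiviral effectors, and 2 of 5 genes of the ISG15 system and signalling. Among 6 IRG genes there was none. The median change of antiviral genes and GTPases was -0.57 and -0.18 in the untreated pair, -0.53 and -0.00014 in the IL-4 pair, and -0.73 and 0.30 in the IL-33 pair. In each of the 3 pairs the median of the GTPases was thus the higher of the 2.

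Counting error was small beside these differences. In untreated cells the interval of the fold from 1 h to 4 h lay below 1 for 25 of 32 single-transcript members and above 1 for 2, beside 18.8% and 40.9% of all such genes. Of the antiviral genes, 22 of 26 lay below 1. Those above 1 were Stat2, with a fold of 1.57 (1.45 to 1.70), and Irgm2, with 1.23 (1.09 to 1.39). Stat2, a subunit of the type I interferon factor, stood at 13.6, 12.7 and 11.3 FPKM at 1 h and at 21.4, 23.6 and 23.9 at 4 h, the opposite order to that of most antiviral members.

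The abundant secreted glycoprotein Lgals3bp stood at 150, 145 and 149 FPKM at 1 h and at 84.8, 88.3 and 74.7 at 4 h, and its fold in untreated cells was 0.566 (0.542 to 0.592). Rtp4 stood at 50.6, 52.5 and 48.4 FPKM at 1 h and at 29.9, 26.2 and 28.3 at 4 h. Sp100, of the nuclear body, stood at 88.0, 86.0 and 89.7 FPKM at 1 h and at 60.2, 64.2 and 57.9 at 4 h, whereas its partner in that structure, Daxx, stood at 18.0, 18.9 and 16.8 at 1 h and at 19.3, 19.4 and 22.4 at 4 h. The sensors Ddx58 (RIG-I) and Ifih1 (MDA5) differed less with time than Zbp1, with changes of -0.31 and -0.42 in untreated cells. Oas1b was the OAS gene without a separation of times, at 4.51 to 5.76 FPKM over the 6 libraries.

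Markers of other cell types were summed on the same scale. The plasmacytoid dendritic cell list, a type known for interferon production, was at 26.4 to 32.8 FPKM at 1 h and 21.0 to 36.1 at 4 h, and none of its 6 markers was at 0 in any library. The monocyte and macrophage list of 8 genes was at 2378 to 2513 FPKM at 1 h and 1464 to 2244 at 4 h, lower at 4 h together with the members. Ly6c2, itself inducible by interferon, made up most of it, at 1700 FPKM in untreated cells at 1 h and 908 at 4 h; without it the list was at 678 FPKM in untreated and 840 in IL-33 cells at 1 h, and at 574 and 1129 at 4 h. No marker of that list was at 0. Its level without Ly6c2 was thus lower at 4 h in the untreated pair and higher in the IL-33 pair, while the members' medians were negative in both. The IL-33 library of 4 h, with the highest Gbp2, also had the highest level of this list without Ly6c2, at 1129 FPKM against 574 in untreated cells. Emr1 made up much of that sum, at 552 FPKM in that library and 291 in untreated cells of 4 h. Bulk values do not show which cells carried it, so the sum is not a measure of monocytes or macrophages. Csf1r, Emr1 and Cd14 were above their untreated levels of 4 h in that library, Cd14 most, at 218 against 47.0 FPKM, and Ms4a7, C1qa and C1qb were below them, at 79.3 against 84.8, 15.5 against 19.9 and 22.5 against 24.6. Lymphoid markers were at 17.9 to 20.9 FPKM at 1 h and 18.3 to 19.5 at 4 h, neutrophil markers at 6771 to 7269 and 6042 to 7935, and mast cell and basophil markers at 159 to 177 and 177 to 213. Cd3e and Tpsab1 were listed at 0 in some libraries. The part of other cells in the differences between times and with IL-33 was not tested.

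A list of 52 further genes of the pathway was set beside the members. Its 18 interferon ligands were under FPKM 1 in each library, most of them listed at 0. Ifnb1 was at 0.168 FPKM in untreated cells at 1 h, from about 2 reads, and was listed at 0 in untreated cells at 4 h. Ifng was listed at 0 in untreated cells at 1 h and 4 h and with IL-33 at 1 h. It was at 0.242 and 0.206 FPKM with IL-4 at 1 h and 4 h, and at 0.136 with IL-33 at 4 h. With IL-33, 5 of 30 genes compared were higher at 1 h and 10 of 31 at 4 h, with 0 and 1 lower; over all genes 2.36% and 4.15% were higher and 0.669% and 1.38% lower. The median change was 0.28 and 0.58, above that of the members at both times. With IL-4, 1 of 30 was higher at each time, the feedback inhibitor Socs1, where 0.47% and 0.646% of all genes were higher.

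Among the receptors, Ifnar1, a chain of the type I receptor, stood at 12.3, 11.9 and 26.5 FPKM at 1 h and at 15.9, 15.6 and 30.6 at 4 h, changes with IL-33 of 1.05 and 0.90. The partner chain Ifnar2 was far more abundant, at 207 to 245 FPKM over the 6 libraries, and changed by 0.02 and 0.07. Il10rb, the chain shared by the receptors for IL-10 and lambda interferons, stood at 54.8, 60.1 and 143 FPKM at 4 h (1.36 with IL-33). Ifngr2 stood at 75.4 and 129 FPKM in untreated and IL-33 cells at 1 h (0.77), and Ifngr1 changed by 0.26. Il28ra, the specific lambda chain, passed FPKM 1 with IL-33 at 4 h alone, at 1.56.

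Of the kinases, Tyk2 stood at 20.2, 19.4 and 54.3 FPKM at 4 h (1.38) and Jak2 at 43.6, 49.8 and 95.4 (1.11). Irf9, which acts with Stat2, was not past the size of 1, with a change of 0.23 at 4 h. Irf5 stood at 38.1, 35.4 and 79.7 FPKM at 1 h (1.05). Irf7, which amplifies type I interferon production, was the single gene of this list that was lower in untreated cells at 4 h, at 149, 152 and 151 FPKM at 1 h and 69.8, 83.5 and 59.7 at 4 h (-1.08).

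The kinase Ikbke, known to act upstream of Irf3 and Irf7, had the largest change with IL-33 at 4 h in the list, from 3.85 to 64.0 FPKM (3.73), and was at 3.38 with IL-4. The DNA sensor receptor Tlr9 stood at 1.41, 1.19 and 3.89 FPKM at 1 h (1.00) and at 1.92, 1.85 and 15.6 at 4 h (2.48). The adaptor Traf3 stood at 13.0, 12.2 and 27.9 FPKM at 4 h (1.04). Tmem173 (STING), an adaptor of DNA sensing, was the one gene lower with IL-33 at 4 h, at 46.2, 46.5 and 20.0 FPKM (-1.17). The feedback inhibitor Socs3 stood at 2.71, 3.92 and 8.86 FPKM at 1 h and at 1.45, 1.80 and 11.9 at 4 h. Socs1 changed by 2.35 and 2.14 with IL-4 and by 0.60 and 2.00 with IL-33.

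Of the interferon-inducible chemokines, Cxcl10 was higher with IL-33 at both times and Ccl5 at 4 h. Cxcl10 stood at 1.91, 2.02 and 72.0 FPKM at 1 h and at 1.72, 0.521 and 29.5 at 4 h, changes of 4.62 and 3.46 with IL-33. Ccl5 stood at 16.1, 13.2 and 22.7 FPKM at 1 h and at 16.1, 15.8 and 58.3 at 4 h (1.79 at 4 h). Both genes are also known targets of NF-kB.

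**Figure D4:**
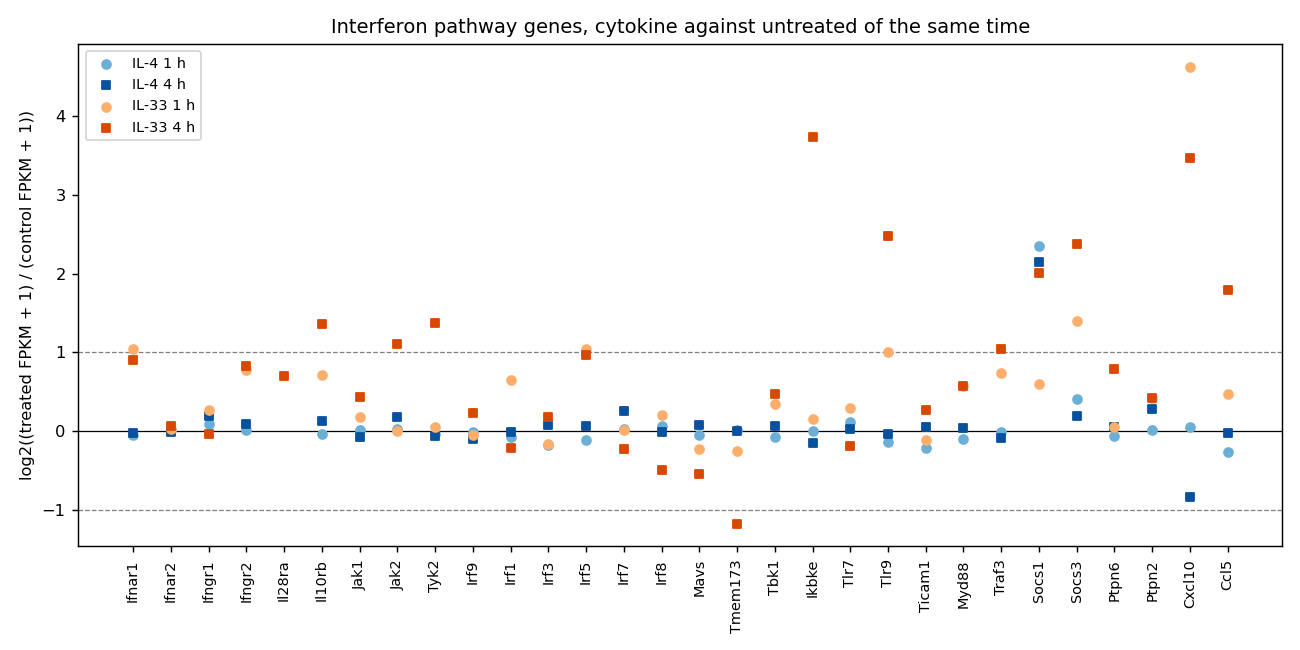
Change of genes of the interferon pathway that reached FPKM 1, with IL-4 (blue) or IL-33 (orange) at 1 h (circles) and 4 h (squares), as log2((treated FPKM + 1) / (control FPKM + 1)); dashed lines mark a size of 1. With IL-33, Cxcl10 reached 4.62 at 1 h and Ikbke 3.73 at 4 h, and with IL-4 Socs1 alone lies above 1.

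A second list of 46 other interferon-inducible genes showed how far these patterns reached. With IL-33 at 4 h, 3 of 42 were higher and 2 lower, with a median of -0.01, beside 4.15% and 1.38% of all genes. The higher ones were Gbp1, Tor3a (9.88 to 29.0 FPKM in untreated and IL-33 cells) and Psme2, a subunit of the proteasome activator (140 to 350). The lower ones were Ddx60, a helicase, at 14.8 and 5.96 FPKM, and Psmb9, an immunoproteasome subunit, at 70.2 and 34.5. In untreated cells at 4 h against 1 h, 2 of 43 were lower, Ifi27l2a (1340 to 656 FPKM) and Isg20 (25.3 to 10.4), and 0 higher, with a median of -0.16, beside 1.56% and 0.879% of all genes. All 3 libraries of 4 h lay below all 3 of 1 h for 17 of 45 of these genes, against 28 of 44 members, 4 of 31 pathway genes and 11.1% of all genes.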

How the data were processed

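RNA of 6 libraries, 1 per group, was sequenced as single reads, per the labels' protocols. Reads were aligned with TopHat 1.4.1 to mm9 and transcript levels made by Cuffdiff 1.2.1, as the submitters' processing notes record. The authors deposited FPKM for 28702 RefSeq transcripts in 4 tables. The p-value and q-value columns compare the reads of 2 libraries and were not used. A deposited list gives the authors' log2 fold changes for 1593 genes.

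Transcripts were summed per symbol; a symbol at several loci kept the locus of highest FPKM, except that the sum of Tgtp1 and Tgtp2 took all loci. Untreated values in the IL-33 tables were 0.945 times (1 h) and 0.947 times (4 h) those in the IL-4 tables. IL-33 values were divided by these factors to give levels on the scale of the IL-4 table of the same time. Comparisons of 4 h with 1 h cross tables without such a factor. Changes used a pseudocount of 1 FPKM and a minimum of 1 FPKM. Whether reads were counted by strand is not given in the sources used here. Low values fell on steps of 1 read, which gave relative depth. Reads were estimated with transcript length less 200 bases, for single-transcript members, leaving out Tgtp1; lengths came from GENCODE vM21 by RefSeq identifier.

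The members and lists were chosen with earlier results of these data known. Members past the size of 1 with a cytokine, with IL-33 against IL-4, or between the untreated libraries were given in full. Those past it only in the treated pairs of 4 h and 1 h were not all given. The 3 most and 2 least abundant members, those nearest the threshold, and the receptors were also described. Further members were chosen after their values were seen. Alternatives were the pseudocount, the filter, the transcript of highest FPKM, median-centring, the control of the other time, the other control column, summing Tgtp1 with Tgtp2, and the treated pairs for time. A gene of the pathway list and one of the monocyte list are counted but not reported here. The steps were tested on simulated data. Python 3.11.15, pandas 2.3.3, numpy 2.4.6 and scipy 1.17.1 were used.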

Additional observations from a re-analysis of the deposited data

Results flagged for a closer look

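Usp18 changed with IL-33 by -1.14 at 1 h and by 0.10 at 4 h on the log2 scale. The signs at the 2 times were opposite, but the change at 4 h was small. Tgtp1 changed with IL-33 by -0.051 at 1 h and by 1.98 at 4 h, also with opposite signs, but the change at 1 h was small. Its value at 4 h is set against an untreated library in which Tgtp1 was near 0. In that library the Tgtp2 transcript annotated at the same locus was at 2.19 FPKM. With 1 library per group, neither difference between times was tested.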

How the results depend on the processing

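Of 90 alternative values of the counts and medians, 77 stayed within the limits set, and of 141 for single genes 128 did. The control of the other time moved most: the members past the size of 1 became 8 for IL-4 at 1 h, 10 for IL-33 at 1 h, 9 for IL-4 at 4 h and 14 for IL-33 at 4 h, and the medians 0.46, 0.56, -0.45 and -0.59. These values add the difference between the untreated libraries to that of the cytokine. For IL-4 at 4 h the count of 1 became 2 with a pseudocount of 0.1 and 0 with Tgtp1 summed with both Tgtp2 transcripts or with the one at its locus, these sums chosen after seeing the data. For 4 h against 1 h, the 8 members of the untreated pair became 14 in the IL-33 pair (12 lower, 2 higher), and the median became -0.41 in the IL-4 pair. Tgtp1 reversed over time, to 0.010 in the IL-4 pair and 0.30 in the IL-33 pair; both pairs were added after seeing the data. No paired analysis of a cytokine against untreated cells of the same time was possible with 1 library per group. The times could be paired by treatment, but a fit of time with treatment as a block was not made. Counting error limits Gbp3, Gbp6 and Iigp1, which lie near 1 FPKM.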

Other observations

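In the authors' deposited table of log2 fold changes, 4 of the 44 members are listed, beside 1593 genes out of 22548 symbols. They are Gbp2 (1.42 and 2.52 with IL-33 at 1 h and 4 h), Trex1 (1.08 with IL-33 at 1 h), Usp18 (-1.18 with IL-33 at 1 h) and Ifih1. The authors' values are ratios without 1 added, so Gbp2 with IL-33 at 4 h has 2.52 here and 2.19 above. The authors' deposited table marks Ifih1 as significant at 1 h with both cytokines, with log2 fold changes of -0.06 for IL-4 and 0.18 for IL-33. Its transcript NM_001164477 stood at 1.83 FPKM in untreated cells at 1 h and at 0.000492 with IL-4, and NM_027835 at 3.56 and 5.18, so the split between transcripts differed while the sum was 5.39 and 5.18. Mx2 had a similar shift between untreated libraries: NR_003508 stood at 2.48 FPKM at 1 h and 0.00403 at 4 h, and NM_013606 at 9.76e-05 and 1.04.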
